A study of Mus musculus with 6 samples.

Results

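Regional identity genes are transcription factor genes whose expression in the embryo marks where along the brain a neural progenitor lies. Here 9 homeobox genes were followed out of 22180 genes tested: Emx1, Emx2 and Lhx2, which mark the dorsal telencephalon; Otx1 and Otx2, which mark forebrain and midbrain; Six3 and Nkx2-1, which are used in ventral and anterior forebrain; and En1 and En2, which mark midbrain and anterior hindbrain. They were chosen by name, with earlier results of these data known. Each was read by 1 probe set that names that gene only, so all 9 had a value on every array.

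The proteins of all 9 genes bind DNA through a homeodomain. Emx2 and Lhx2 pattern the embryonic cortex, Otx2 is needed to form the head and later marks the choroid plexus, Six3 represses posterior fates at the anterior tip of the neural plate, and Nkx2-1 specifies the medial ganglionic eminence. En1 and En2 act around the boundary of midbrain and hindbrain. Stem cells of the adult subventricular zone descend from embryonic progenitors of different telencephalic regions and are known to keep part of that regional code.

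Neurospheres are spheres that neural stem and progenitor cells form in suspension culture. Those measured here came from the subventricular zone of 2-month-old CD1 mice, an outbred stock, and spent 7 days in serum-free medium with EGF and FGF2. In the PBS group, 3 animals were born to mothers given PBS into the peritoneum, and in the MG group 3 animals were born to mothers given MG at 0.5 mg/kg, read as methylglyoxal from the series title. In both groups injections were given 2 times a day from gestational day 12 until birth. RNA was hybridised to 6 Affymetrix Mouse Gene 2.0 ST arrays, 1 per animal. The labels name the cultures both primary and secondary neurospheres, and do not give the animals' sex or whether those of a group shared a mother. With littermates in a group, the p-values would be too small, and litter and injection cannot be told apart. The comparison asks whether the prenatal injections left a difference in the adult offspring's cells.

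The deposited values are taken to be log2 from their range. Since probe sets differ in how strongly they respond, each gene is compared only with itself across arrays and with a reference level of 5.02. That reference lies above the mean level of 95% of the 1390 receptor genes of the olfactory and vomeronasal epithelia, which serve here as a dim background. Of all genes tested, 57.9% lay above it on all 6 arrays. All 10 neural stem cell markers did so, among them Sox2 (10.99 to 11.27) and the intermediate filament gene Nes (10.58 to 10.89), as the label of the cultures requires. Of the markers of other cells, 7 of 10 for neurons and neuroblasts, 7 of 7 for the oligodendrocyte lineage, 4 of 7 for ependyma, 3 of 7 for microglia, 1 of 7 for endothelium and 2 of 8 for pericytes and fibroblasts lay above it on all arrays. The arrays numbered 3 of both groups stood apart from the other 4: their scores on the first principal component, which held 44.1% of the variance, were 21.0 and 37.6, against -21.3 to -9.86.

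Promoter sequences were looked up for the members, and 7 of the 9 matched a RefSeq entry of GRCm38.p6, with 11 windows of 300 bases (250 before the start of the gene and 50 after it). Those of Emx1 and Emx2 are shown because these sister genes parted on the arrays, Emx2 lying clearly above the reference and Emx1 close to it. CG dinucleotides, the sites of most DNA methylation in mammals, are in capitals, and the sequences run 5′ to 3′ on the + strand.
Emx1 chr6:85187681-85187980: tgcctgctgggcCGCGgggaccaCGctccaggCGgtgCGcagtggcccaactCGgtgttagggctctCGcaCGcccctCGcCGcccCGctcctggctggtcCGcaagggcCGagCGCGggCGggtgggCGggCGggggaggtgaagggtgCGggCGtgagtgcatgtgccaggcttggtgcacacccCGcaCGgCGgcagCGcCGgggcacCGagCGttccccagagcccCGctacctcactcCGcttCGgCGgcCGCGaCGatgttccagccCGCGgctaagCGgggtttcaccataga
Emx2 chr19:59458440-59458739: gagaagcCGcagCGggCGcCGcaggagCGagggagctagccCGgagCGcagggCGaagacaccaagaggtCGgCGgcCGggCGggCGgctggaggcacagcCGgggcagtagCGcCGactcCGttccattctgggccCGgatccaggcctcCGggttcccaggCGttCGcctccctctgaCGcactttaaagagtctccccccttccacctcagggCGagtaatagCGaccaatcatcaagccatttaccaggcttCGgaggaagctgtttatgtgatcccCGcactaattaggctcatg
The Emx1 window holds 37 CG dinucleotides and that of Emx2 26, against a median of 7 over 32851 windows of the same length. They lay above 94.4% and 83.1% of those windows. Of the 11 windows of members, 10 held more than the median, the exception being 1 of 4 for Otx2. Emx1, the gene close to the reference, had the window with more of them. A relation between these counts and the array values was not tested, and methylation was not measured.

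The windows were also searched on both strands for TAATTA, a core that many homeodomains bind, and for TAATCC, the core bound by the Otx type. TAATTA occurred in 3 of the 11 windows of members and in 5.29% of all windows, and TAATCC in 1 of 11 and in 7.06%. The windows with TAATTA were that of Emx2 and others of Otx2, the member with the most windows, some of which overlap each other. One of the Otx2 windows held 3 copies of TAATTA and 1 of TAATCC, read there from the other strand as GGATTA, with no overlap between matches. It is shown with the matches in capitals, on the - strand.
Otx2 chr14:48665060-48665359: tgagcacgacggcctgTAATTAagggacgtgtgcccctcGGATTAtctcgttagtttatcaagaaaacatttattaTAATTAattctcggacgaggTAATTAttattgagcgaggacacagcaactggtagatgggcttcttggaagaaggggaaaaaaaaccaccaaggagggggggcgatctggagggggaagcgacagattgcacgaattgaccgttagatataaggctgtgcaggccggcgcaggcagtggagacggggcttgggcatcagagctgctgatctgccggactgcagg
A match describes the letters in the window and not binding, which was not measured.

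Of the 9 members, 5 lay above the reference on all 6 arrays, against 57.9% of all genes. Another 2 were below it on all 6 and 2 around it. Emx2, Lhx2, Otx1, Otx2 and Six3 were above it, Nkx2-1 and En1 below it, and Emx1 and En2 crossed it. Signal above the reference was therefore present in the same cultures for dorsal Emx2 and Lhx2, anterior Otx1 and Otx2, and, of the ventral pair, Six3. Neither engrailed gene stood clear of the reference. However, 9 of 19 other midbrain and hindbrain genes lay above it on all arrays (47.4%), against 33.3% of 12 other dorsal genes. No contrast of forebrain with posterior genes is read from these counts. In cultures of many cells, fewer cells of a type and less RNA per cell cannot be told apart.

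**Figure D1:**
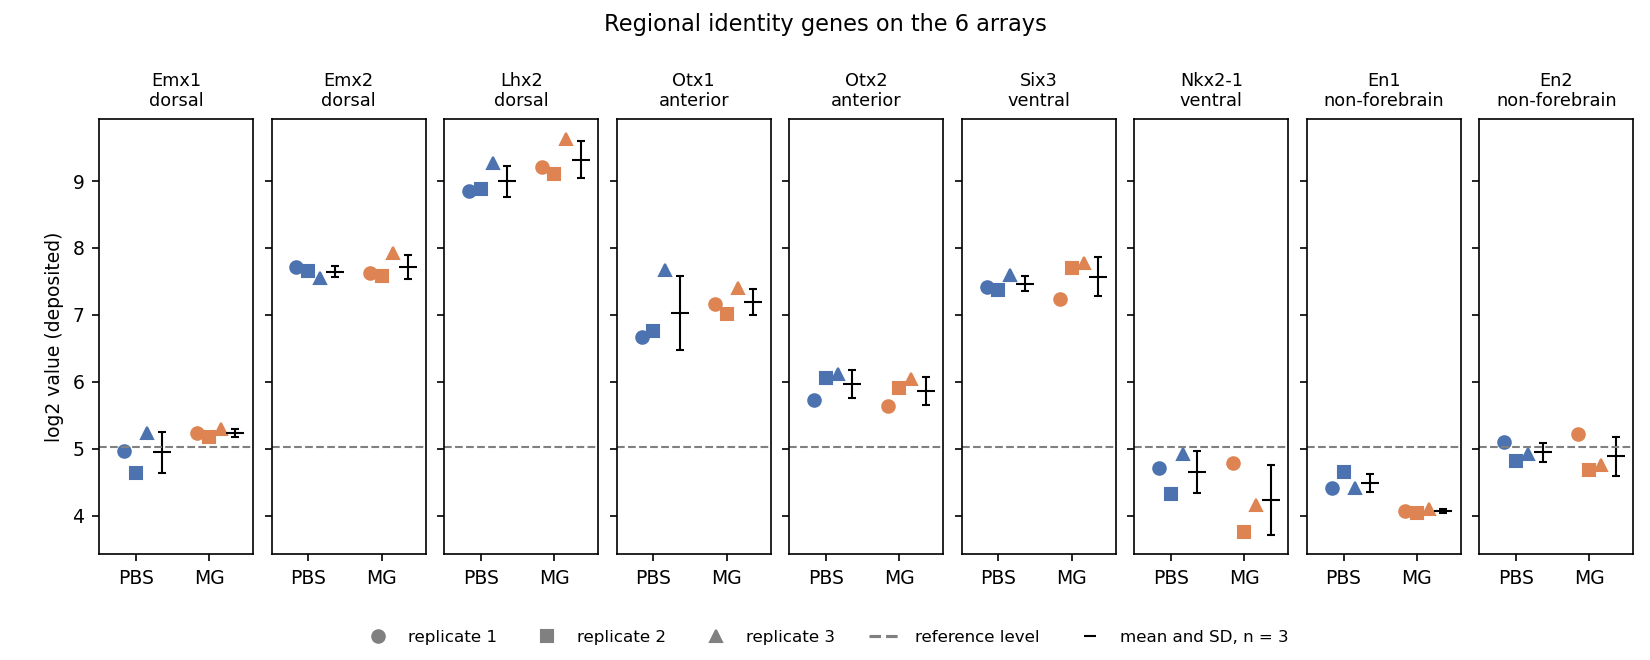
Deposited log2 values of the 9 regional identity genes (vertical axis) in the 3 PBS and 3 MG cultures, with symbols for the replicate number, black bars for mean and SD (n = 3), and a dashed line at the reference level of 5.02. Emx2, Lhx2, Otx1, Otx2 and Six3 lie above the line on all arrays and Nkx2-1 and En1 below it; heights are not comparable between genes.

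No member passed the adjusted test of MG against PBS. In limma's moderated test with Benjamini-Hochberg adjustment over all 22180 genes, 0 members passed an adjusted p of 0.05, as did 0% of all genes. The adjusted p was 0.9998 for each of the 9. At an unadjusted p under 0.05 there was 1 member, En1, against 3.21% of all genes, and the ordinary linear model with no moderation also gave 1. Groups did not overlap in 1 member, again En1, against 7.34% of all genes. Means were higher in MG for 5 members and lower for 4, where 53.8% of all genes had higher means. Of the 5 members above the reference 4 had higher means, against 58.3% of the genes above it. The median log2 difference of the members was 0.07, and that of all genes was 0.01.

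**Figure D2:**
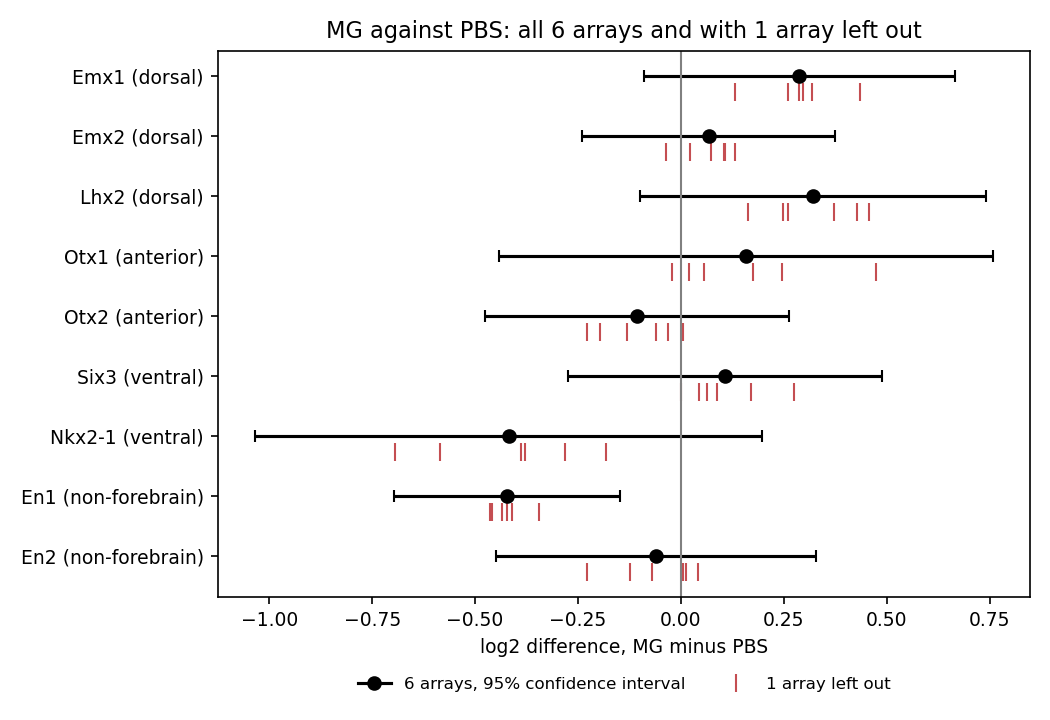
Log2 difference between MG and PBS means (horizontal axis) for each regional identity gene, with its 95% confidence interval from limma on 6 arrays (black) and the values with 1 array left out (red ticks). The interval of En1, a gene below the reference level, is the one that does not include 0.

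Among the dorsal genes, Lhx2, a LIM homeodomain gene that acts as a selector of cortical identity, was well above the reference. It read 8.85, 8.87 and 9.27 in PBS replicates 1, 2 and 3, and 9.22, 9.10 and 9.63 in MG. The groups overlapped, since PBS replicate 3 was above the lower values of MG, and replicate 3 was the highest of each group. PBS averaged 9.0 ± 0.23 and MG 9.32 ± 0.28 (SD, n = 3 each), which is 0.32 higher on the log2 scale (standard error 0.18, 95% interval -0.10 to 0.74). With 1 array left out the difference ran from 0.16 without MG replicate 3 (unadjusted p 0.349 in limma) to 0.46 without PBS replicate 3 (unadjusted p 0.0423, adjusted p 0.9996). In the latter setting 669 of the 22180 genes had an unadjusted p under 0.05.

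Emx2, which is needed for growth of the hippocampus, had the narrowest range of the members above the reference, 0.36. It read 7.72, 7.65 and 7.56 in PBS and 7.63, 7.58 and 7.92 in MG. The lowest value of all was that of PBS replicate 3 and the highest that of MG replicate 3, so the groups overlapped widely. MG exceeded PBS by 0.07 on the log2 scale (standard error 0.13), and the 95% interval, -0.24 to 0.37, holds differences of up to 1.30-fold. The difference was -0.037 without MG replicate 3. Its standard deviation within groups was 0.14, larger than that of 36.6% of the genes above the reference.

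Emx1, a gene of dorsal progenitors and of the cortical neurons made from them, stayed close to the reference. Emx1 read 4.97, 4.63 and 5.24 in PBS and 5.24, 5.18 and 5.29 in MG, so that 4 of the 6 arrays were above 5.02. The MG cultures lay within 0.12 of each other, while PBS replicates 1 and 2 were lower. PBS replicate 3 fell within the range of MG, so the groups overlapped. The mean was 0.29 higher in MG (log2 scale, standard error 0.16, 95% interval -0.09 to 0.67). The unadjusted p in limma was 0.117. With 1 array left out the difference ran from 0.13 without PBS replicate 2 (unadjusted p 0.416 in limma) to 0.43 without PBS replicate 3 (unadjusted p 0.0235, adjusted p 0.9996). An unadjusted p under 0.05 was found for 669 of the 22180 genes in the latter setting.

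Other genes of the dorsal telencephalon were split. Of 12 such genes tested, 4 lay above the reference on all arrays (33.3%) and 7 below it on all. Those above were the cortical progenitor genes Pax6 (7.07 to 8.04), Gli3 (7.06 to 8.35) and Dmrta2 (5.66 to 6.03), and the proneural gene Neurog2 (5.78 to 6.42). The 7 below it were Eomes, Fezf2, Lhx9, Neurog1, Tbr1, Tfap2c and Wnt8b, at up to 4.90, 4.41, 4.50, 4.91, 4.72, 4.08 and 4.26. Means were higher in MG for 5 and lower for 7, with a median log2 difference of -0.02, and none passed the adjusted test. Neurog1 had the smallest unadjusted p of the list, 0.0174, at values below the reference.

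Among the anterior genes, Otx1, which acts in the cortex and in its deep-layer neurons, varied most of the members above the reference. It read 6.67, 6.76 and 7.67 in PBS and 7.16, 7.02 and 7.40 in MG. PBS replicate 3 was the highest value and PBS replicates 1 and 2 the lowest, so that MG lay inside the range of PBS. Means were 7.03 ± 0.55 in PBS and 7.19 ± 0.19 in MG (SD, n = 3 each), a log2 difference of 0.16 (standard error 0.26, 95% interval -0.44 to 0.76). It was 0.47 without PBS replicate 3 (unadjusted p 0.0191, adjusted p 0.9996 in limma) and -0.021 without PBS replicate 1. Without PBS replicate 3, 669 of the 22180 genes had an unadjusted p under 0.05. The standard deviation of Otx1 within groups, 0.41, was larger than that of 93.4% of the genes above the reference.

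Otx2, the paralogue of Otx1, was above the reference on all arrays. It read 5.73, 6.06 and 6.12 in PBS and 5.64, 5.91 and 6.04 in MG. Replicate 1 was the lowest of both groups, and the groups overlapped. MG minus PBS was -0.11 on the log2 scale (standard error 0.16, 95% interval -0.48 to 0.26), and it was 0.0056 without MG replicate 1. Because Otx2 also marks the choroid plexus, which borders the dissected region, 9 markers of that epithelium were read beside it. Of these, 1 lay above the reference on all arrays, the water channel gene Aqp1 (5.13 to 5.53), and 5 lay below it on all. The mean level of the 9 markers was between 4.54 and 4.75 in PBS and between 4.51 and 4.65 in MG. Ttr, the most abundant transcript of that tissue, read 5.14, 5.21 and 5.16 in PBS and 5.01, 4.68 and 4.70 in MG. Its groups did not overlap, as in 7.34% of all genes. Its unadjusted p in limma was 0.0203, under 0.05 as in 3.21% of all genes, and its adjusted p was 0.9998. The part of such cells in the signal of Otx2 was not tested.

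Of 9 other anterior and telencephalic genes tested, 5 were above the reference on all arrays (55.6%). They were Meis2 (10.91 to 11.23), Nr2e1 (7.87 to 8.31), a nuclear receptor gene of adult neural stem cells, the receptor genes Nr2f1 and Nr2f2, and Bcl11b. None passed the adjusted test, and log2 differences ran from -0.13 to 0.30.

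Six3, of the ventral and anterior genes, was above the reference, and Nkx2-1 was not. Six3, a repressor of posterior and Wnt genes in the early forebrain, read 7.42, 7.38 and 7.59 in PBS and 7.24, 7.69 and 7.78 in MG. MG held both the lowest value, replicate 1, and the highest, replicate 3. Between means the log2 difference was 0.11 (standard error 0.17, 95% interval -0.27 to 0.49). It was 0.0014 without MG replicate 3 and 0.045 without MG replicate 2. Without MG replicate 1 it was 0.27, and the groups then did not overlap (unadjusted p 0.0841 in limma), as in 3875 of the 22180 genes in that setting.

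Nkx2-1 stayed below the reference on every array. It read 4.71, 4.32 and 4.92 in PBS and 4.79, 3.76 and 4.15 in MG. The groups overlapped because MG replicate 1 lay above 2 of the PBS cultures. Its mean was lower in MG by a log2 difference of -0.42 (standard error 0.27, 95% interval -1.03 to 0.20), on values at which no fold is given. With 1 array left out it ran from -0.69 without MG replicate 1 (unadjusted p 0.0152, adjusted p 0.9992 in limma) to -0.18 without MG replicate 2 (unadjusted p 0.495). Without MG replicate 1, 956 of the 22180 genes had an unadjusted p under 0.05.

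Other ventral genes were likewise split. Of 16 tested, 8 were above the reference on all arrays and 7 below it on all. Gsx1 (6.33 to 6.80) and Gsx2 (6.04 to 6.83), genes of the lateral ganglionic eminence, were above it. So were Dlx2 (7.35 to 7.86), Olig2 (12.65 to 12.88), Nkx6-2, Vax1, Sp9 and Lhx6. The 7 below it were Dlx5, Dlx6, Ebf1, Gbx1, Lhx8, Shh and Sp8, at up to 4.04, 4.24, 4.86, 3.94, 4.28, 4.70 and 4.54. Means were higher in MG for 7 and lower for 9, and none had an unadjusted p under 0.05. Of the Zic genes of septum and midline, Zic2 (5.91 to 6.40) and Zic5 (6.08 to 6.95) were above the reference out of 4.

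En1, one of the engrailed repressors, was the member whose groups did not overlap, at values below the reference on every array. It read 4.41, 4.65 and 4.42 in PBS and 4.07, 4.05 and 4.10 in MG. Every MG value was below every PBS value, as in 3.31% of all genes. PBS averaged 4.49 ± 0.13 and MG 4.07 ± 0.02 (SD, n = 3 each), a log2 difference of -0.42 (standard error 0.12, 95% interval -0.70 to -0.15). Limma gave it an unadjusted p of 0.00749 and, after adjustment, 0.9998. By exact permutation of the 6 values (two-sided) p was 0.1, and no split of 3 and 3 can give less. As both groups lay below the reference, no fold is given. With 1 array left out the difference stayed between -0.46 and -0.34.

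En2, the other engrailed gene, crossed the reference on 2 of 6 arrays. It read 5.09, 4.82 and 4.93 in PBS and 5.22, 4.68 and 4.76 in MG. Replicate 1 was the highest of both groups, and the groups overlapped. MG minus PBS was -0.06 on the log2 scale (standard error 0.17, 95% interval -0.45 to 0.33). Its sign turned without PBS replicate 1 (0.013), MG replicate 2 (0.041) or MG replicate 3 (0.0043).

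Of 19 other genes of midbrain and hindbrain, 9 were above the reference on all arrays (47.4%), and of 36 Hox genes, which mark hindbrain and spinal cord, 4 were (11.1%). Those above included the Iroquois genes Irx1 (5.48 to 6.26), Irx2 and Irx3, Lmx1b (5.92 to 6.46), Foxa2 and Gbx2. Genes that act with the engrailed genes at the boundary of midbrain and hindbrain were split. Fgf17 (5.94 to 6.31) and Cnpy1 (5.13 to 6.06) lay above the reference on all arrays, Wnt1 (4.64 to 5.51) and Pax2 (3.98 to 5.18) crossed it, and Pax5, Pax8 and Fgf8 lay below it on all, at up to 4.93, 4.72 and 4.46. The Hox genes above it were Hoxa4, Hoxa6, Hoxb5 and Hoxd10. Below the reference on all arrays were 5 of the 19 and 22 of the 36. Means were lower in MG for 14 of the 19 and for 25 of the 36, against 10257 of all 22180 genes. The median log2 difference was -0.09 for both lists. On MG replicate 3 they averaged -0.24 and -0.21 relative to the mean of the 6 arrays, and -0.05 to 0.13 on the other arrays. None of these genes passed the adjusted test. At an unadjusted p under 0.05 in limma there was 1, Hoxc11, against 3.21% of all genes. Its values were lower in MG and below the reference on every array (3.86 to 4.78). Of 9 genes of the diencephalon 4 were above the reference (44.4%), among them Barhl2 (7.71 to 8.73) and Tcf7l2 (7.40 to 8.24).

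**Figure D3:**
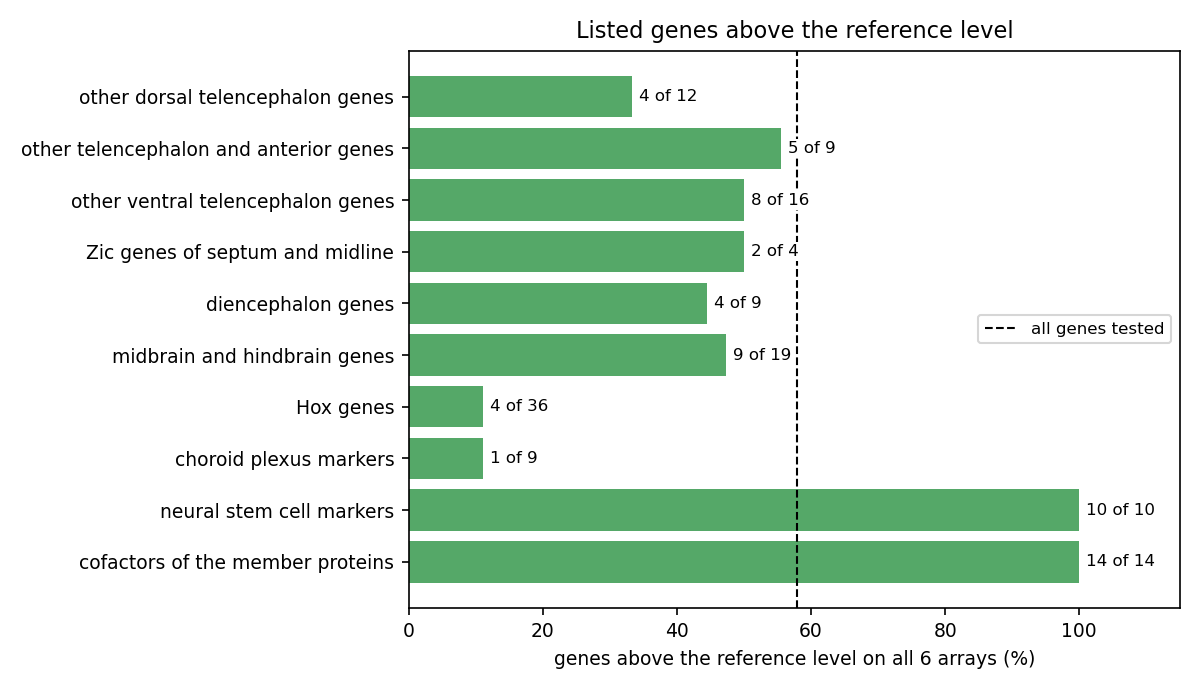
Share of the listed genes that lay above the reference level on all 6 arrays (horizontal axis, percent), with counts beside the bars and a dashed line at the 57.9% of all genes tested. The Hox genes stand at 4 of 36 and the neural stem cell markers at 10 of 10.

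Signal for the tested genes that encode partners of the member proteins was present in all cultures, and protein was not measured. All 14 cofactor genes tested were above the reference on every array. They include Ldb1 (10.09 to 10.31), which joins LIM homeodomain proteins such as Lhx2 into complexes, and the LIM-only gene Lmo4 (9.34 to 9.57), whose product competes for it. The Groucho family genes Tle1, Tle3 and Tle4, corepressors for engrailed and Six3 proteins, were above it as well. Means were higher in MG for 11 of the 14 and lower for 3, against higher means in 58.3% of the genes above the reference. Log2 differences of the cofactor genes ran from -0.14 to 0.20, and none had an unadjusted p under 0.05. Of 18 paralogues of the members, 8 were above the reference, among them Nkx2-2 (7.33 to 8.30), a relative of Nkx2-1.

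Standard deviations within groups were 0.41 for Otx1, 0.26 for Lhx2 and 0.14 for Emx2, and the arrays numbered 3 were mostly high. All 5 members above the reference had their highest value on an array numbered 3, as did 45.5% of all genes above it. MG replicate 3 was the highest of its group in all 5 and PBS replicate 3 in 4, against 45.2% and 37.7% of the genes above the reference. The exception was Emx2, whose lowest value of all 6 arrays was that of PBS replicate 3. The mean of the arrays numbered 3 was above that of the other 4 by 0.63 for Otx1 and by 0.44 for Lhx2. It was above by 0.25 for Six3, by 0.25 for Otx2 and by 0.09 for Emx2. For Otx1 this distance was larger than that of 93.5% of the genes above the reference, and for Lhx2 than that of 84.6%. The 11 proliferation genes tested averaged 0.41 and 0.42 on the arrays numbered 3 relative to the mean of the 6 arrays, and -0.39 to -0.10 on the others. Their part in the values of Otx1 and Lhx2 was not tested. With both arrays numbered 3 left out, the log2 differences between MG and PBS were 0.37 for Otx1, 0.30 for Lhx2 and 0.41 for Emx1, with unadjusted p-values of 0.0270, 0.0526 and 0.0368 and an adjusted p of 0.9995 in limma. In that setting 1067 of the 22180 genes had an unadjusted p under 0.05.

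**Figure D4:**
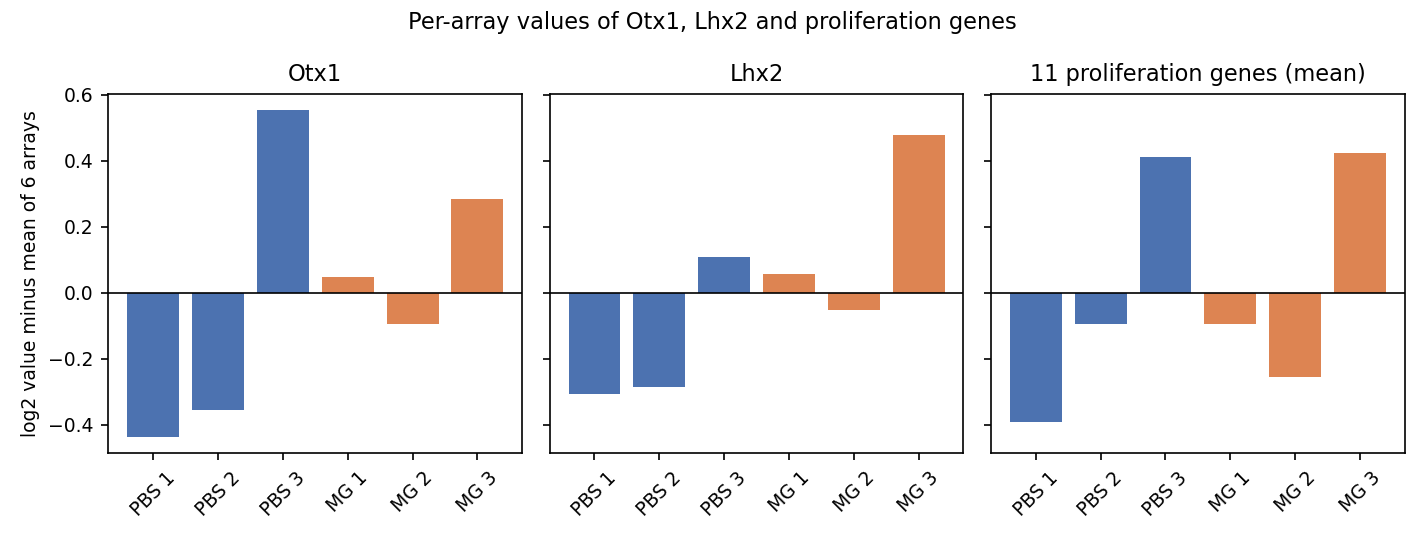
Log2 values of Otx1 and Lhx2 and the mean of 11 proliferation genes on each array, relative to the mean of each gene over the 6 arrays (vertical axis), with PBS in blue and MG in orange. The proliferation genes stand at 0.41 and 0.42 on the arrays numbered 3, where Otx1 and Lhx2 also have the highest value of each group.

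Otx1 had the widest range of the members above the reference, 0.99, and was used to look for genes with a like pattern. Likeness was the root-mean-square distance between centred values over the 6 arrays, among 12835 other genes above the reference. The nearest were Depdc1b, at 0.0766, Ccdc15 (0.0905), Mastl (0.0953), Tipin (0.0970) and Dock11 (0.10). Mastl encodes a mitotic kinase and Tipin a protein of the replication fork. Depdc1b read 6.58, 6.84 and 7.57 in PBS and 7.06, 6.87 and 7.25 in MG. Among the other members Lhx2 was nearest to Otx1, at 0.207, with 474 genes nearer.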

How the data were processed

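Per the labels' protocols, biotinylated cDNA made with the WT PLUS kit was hybridised to Affymetrix Mouse Gene 2.0 ST arrays. The values deposited by the authors are taken to be log2 from their range (0.73 to 13.81). The submitters' processing notes name Partek 6.6. For the background correction, normalisation, summarisation and genome build the sources used here give nothing. Array medians lay between 5.25 and 5.42.

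Of 41345 probe sets, 23521 named 1 gene, 1814 several and 16010 none here. Symbols were updated through RefSeq (GRCm38.p6). For genes with several probe sets the brightest was used. MG was compared with PBS in limma 3.58.1 (R 4.3.3; lmFit, eBayes, two-sided, no covariate) on all 22180 genes, with no filter, and the fit was tested on simulated data. For arrays, their number limits the precision. Figures were drawn with matplotlib 3.10.9. The members, the 18 gene lists (207 of 221 symbols tested), the reference level and the alternatives were chosen with earlier results of these data known. The rule for named genes took all members, the listed genes above the reference on all arrays or with the 4 smallest p of a list, and the 5 genes nearest in pattern to the member of widest range. Fezf2, Lhx9, Tbr1, Tfap2c, Wnt8b, Dlx6, Gbx1, Lhx8, Shh, Sp8, Pax2, Pax5, Pax8 and Fgf8 fall outside it. All of these were named after their values were seen. Promoter sequences are RefSeq's.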

Additional observations from a re-analysis of the deposited data

How the results depend on the processing

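The comparison was repeated in 14 other settings: averaged probe sets, dim genes left out, quantile normalisation, median centring, no moderation, trended robust moderation, the replicate number as a block, each array left out, and both arrays numbered 3 left out. None gave a member past the adjusted threshold, nor any other gene tested. The adjusted p of the members was above 0.999 throughout, with 0.9992 the lowest. Of 123 log2 differences, 116 kept their direction, and the 7 that turned were all in settings with arrays left out. Averaged probe sets, dim genes left out, the moderation choices and the replicate block cannot change a member's difference, so direction was not tested there. None turned under quantile normalisation or under median centring, which moves every gene by the same amount. With both arrays numbered 3 left out, Emx2 turned to -0.081. With 1 array left out, the difference ran from -0.037 to 0.13 for Emx2, from -0.021 to 0.47 for Otx1, from -0.23 to 0.0056 for Otx2 and from -0.23 to 0.041 for En2. Members with an unadjusted p under 0.05 numbered 1 in the main comparison, 0 with dim genes left out, 2 with the replicate block, 3 with both arrays numbered 3 left out, and 1 to 4 with 1 array left out. Over all 22180 genes such calls numbered 712 in the main comparison, 1063 with the block, 1067 without both arrays numbered 3 and 416 to 956 with 1 array left out, and 276 of the 14171 genes kept when dim ones were left out. Members whose groups did not overlap numbered 1, then 0 with dim genes left out, 5 without both arrays numbered 3, and 1 to 4 with 1 array left out. Fewer arrays make gaps between groups more frequent. Groups were apart in 6925 of 22180 genes without both arrays numbered 3, in 2822 to 4089 with 1 array left out, and in 1629 with all 6. With dim genes left out they were apart in 814 of 14171. The highest counts with 1 array left out came without PBS replicate 3 and without MG replicate 1. Leaving dim genes out removed Nkx2-1, En1 and En2 from the test.

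The shared replicate numbers were not taken to pair the arrays. The deviations of same-numbered arrays from their group means correlated at 0.22, 0.04 and 0.45 across genes, and replicates 1 and 2 did not correlate best with their own number. With the replicate block the additional member was Lhx2 (unadjusted p 0.0281).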
